A study of Rattus norvegicus with 20 samples.

Results

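The endocannabinoid system is read here through 9 genes in the dorsal root ganglion (DRG) of rats with and without a nerve injury. Cnr1 and Cnr2 encode the cannabinoid receptors, and Dagla, Daglb, Napepld, Faah, Mgll, Abhd6, and Abhd12 encode enzymes that make or break down their lipid ligands. The genes were taken by name from a table of 39747 genes. Of the 9, 8 were listed under their symbols, and Faah was listed under a provisional name and was matched by its NCBI gene identifier, 100911581.

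Endocannabinoids are lipids cut on demand from membrane phospholipids. Diacylglycerol lipases (Dagla, Daglb) make 2-arachidonoylglycerol, and the phospholipase encoded by Napepld releases N-acylethanolamines such as anandamide. Both ligands act on the Gi/o-coupled receptors CB1 (Cnr1), which sits on neurons and dampens transmitter release, and CB2 (Cnr2), which is best known from immune cells. Fatty acid amide hydrolase (Faah) ends the action of anandamide, whereas monoacylglycerol lipase (Mgll) and the hydrolases Abhd6 and Abhd12 break down 2-arachidonoylglycerol, Abhd12 also being a lysophosphatidylserine lipase. In sensory ganglia, CB1 on the peripheral endings of nociceptors is a known brake on pain.

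RNA was sequenced from 20 DRG of 14 female wild-type Sprague-Dawley rats, 8 to 10 weeks old on arrival. Rats ate a soy oil diet (SOD, the AIN-93G-based control) or a fish oil diet (FOD, the same base with most of its soybean oil replaced by fish oil) for 4 weeks. They then had chronic constriction injury (CCI: loose chromic gut ties around the left sciatic nerve) or sham surgery (CT: the nerve exposed and left untied). On the left side, 14 DRG were sequenced: 4 after sham surgery and 3 after injury on the soy oil diet (SOD-CT, SOD-CCI), and 3 and 4 on the fish oil diet (FOD-CT, FOD-CCI). On the right, 6 contralateral DRG were sequenced, those of all 3 SOD-CCI rats and of FOD-CCI replicates 1, 2, and 3. Every rat had surgery and a defined diet, so no untouched animal was included, and the contralateral DRG belongs to an injured rat. DRG were taken 1 week after surgery. The series' design text has the diets going on for 4 weeks after surgery.

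Levels are given as CPM, read counts scaled to one common library total after TMM, a normalization that sets aside the genes that differ most. A gene was called different when edgeR's two-sided quasi-likelihood test gave a p of 0.1 or less after Benjamini–Hochberg adjustment over all genes tested, together with a fold change of 1.2 or more. Log2 fold changes (log2FC) are given with their standard errors (SE).

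Libraries held 22547190 to 54437581 counts, and some stood apart from their group. Summed CPM of 10 spinal cord markers was 3060 in FOD-CT replicate 1, 2760 in FOD-CCI replicate 1, and 3950 in the contralateral DRG of that rat, and at most 93 in the other 17 libraries, where 1 to 7 of the markers were at 0. The same contralateral DRG had 3970 CPM of 10 DRG neuron markers, against 11100 to 28700 elsewhere. Of the counts of SOD-CT replicate 1, 9.64% belonged to skeletal muscle markers, and 2.05% of those of FOD-CT replicate 2. Lower muscle shares were 0.762% in the contralateral DRG of FOD-CCI replicate 3 and 0.503% in SOD-CT replicate 4. Both were kept in the fits described below as without libraries with muscle or spinal cord markers. Those fits left out SOD-CT replicate 1, FOD-CT replicates 1 and 2, and FOD-CCI replicate 1 or its contralateral DRG. Nerve injury genes (8, among them Atf3 and Sprr1a) went against a label in 1 rat: their summed CPM was 321 in the left DRG of FOD-CCI replicate 1, against 1220 to 3300 in the other 6 libraries labelled CCI and 250 to 615 in sham and contralateral DRG. Where leaving them out moved a value most, it is also given without them.

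In terms of transcript level per gene length (FPKM, counts scaled by gene length and library size), the breakdown enzymes Abhd12 and Mgll led the 9 genes. Median FPKM over the 20 libraries was 94.5 for Abhd12 (range 45.3 to 141). It was 69.6 for Mgll (28 to 121), and Abhd12 was the higher of this pair in 15 of 20 libraries. A filter on low counts over the 20 libraries kept 14435 genes. Of these, 93.1% had a lower median than Abhd12 and 90.7% a lower median than Mgll.

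A middle group followed, with overlapping ranges. Median FPKM was 12.9 for Abhd6, 11.1 for Daglb, 9.52 for Dagla, and 7.43 for Cnr1. Neighbours in this order changed places from library to library, with Dagla above Cnr1 in 12 of 20. Mgll exceeded Abhd6 in all 20 libraries without overlap, by a median ratio of 5.38.

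Napepld (median 3.43 FPKM) and Faah (3.28) were low and could not be ordered, Napepld being the higher in 9 of 20 libraries. Cnr2 came last at 0.265 FPKM, below Faah in all 20 libraries. It had at least 10 counts in 17 libraries and none in 2. With no counts, the limit that 3 counts set applies, so absence cannot be told from a level under that limit.

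**Figure D1:**
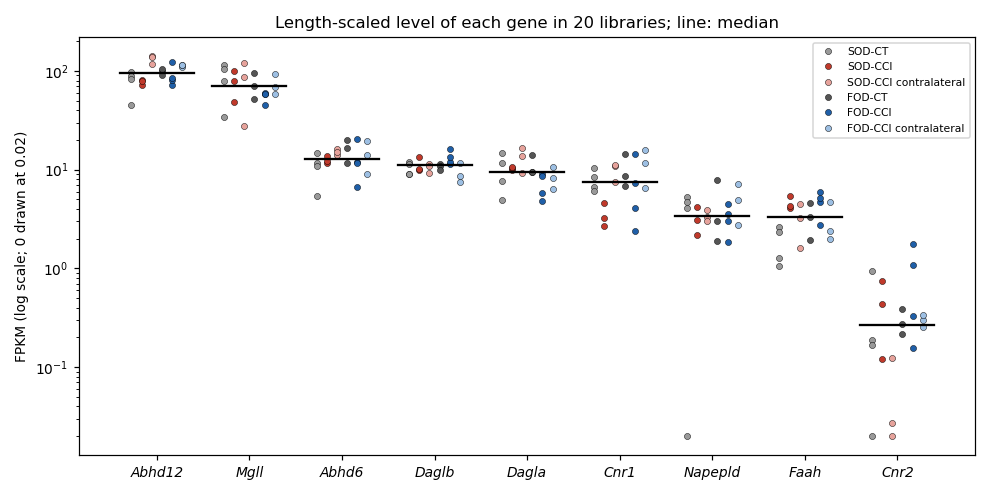
Deposited FPKM (log axis) of the 9 genes in 20 libraries, ordered by median (horizontal line), with points coloured by group. Abhd12 and Mgll lie above the other genes, Cnr2 lies lowest, and the values drawn at 0.02 are zeros.

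The receptor Cnr1 was lower in the injured DRG than in the contralateral DRG of the same rat in 6 of 6 rats. In SOD-CCI rats, left and contralateral CPM were 25.8 and 62 in replicate 1, 18.1 and 61.9 in replicate 2, and 15.1 and 41.9 in replicate 3. In FOD-CCI rats, they were 80.4 and 87.2 in replicate 1, 40.1 and 65.1 in replicate 2, and 22.6 and 36.2 in replicate 3. The SOD-CCI sides did not overlap, the FOD-CCI sides did, and the left-to-right ratio ran from 0.293 to 0.922, the latter being the rat with spinal cord markers and no rise of injury genes. Of 14435 genes, 2.78% were lower on the left in 6 of 6 rats.

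With the rat as a block, Cnr1 fell by 1.49 on the log2 scale in SOD-CCI rats (SE 0.206, adjusted p = 0.0548) and by 1.00 as the mean of both diets (SE 0.144, adjusted p = 0.0325). It was the only gene of the 8 tested that was called in either comparison, where 0.131% and 0.962% of all 14549 genes were called (0.0137% and 0.151% as lower). In FOD-CCI rats the log2FC was −0.51 (SE 0.202, unadjusted p = 0.0332, adjusted p = 0.664), and 0.0137% of genes were called. An unadjusted p under 0.05 was found for 8.48% of genes in SOD-CCI rats, 6.96% in FOD-CCI rats, and 11.6% for the mean.

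The calls rested on each of several rats. Without 1 of the 3 SOD-CCI rats the adjusted p was 0.429 to 0.789 in SOD-CCI and 0.169 to 0.225 for the mean, and without FOD-CCI replicate 3 it was 0.118 for the mean. Without FOD-CCI replicate 1 the log2FC of Cnr1 was −1.495 (adjusted p = 0.00555) in SOD-CCI rats and −1.10 (adjusted p = 0.00389) for the mean. That fit called many more genes, 471 in SOD-CCI rats and 1146 (7.64%) for the mean, against 19 and 140 with all 6 rats. The log2FC was below 0 in all these fits.

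**Figure D2:**
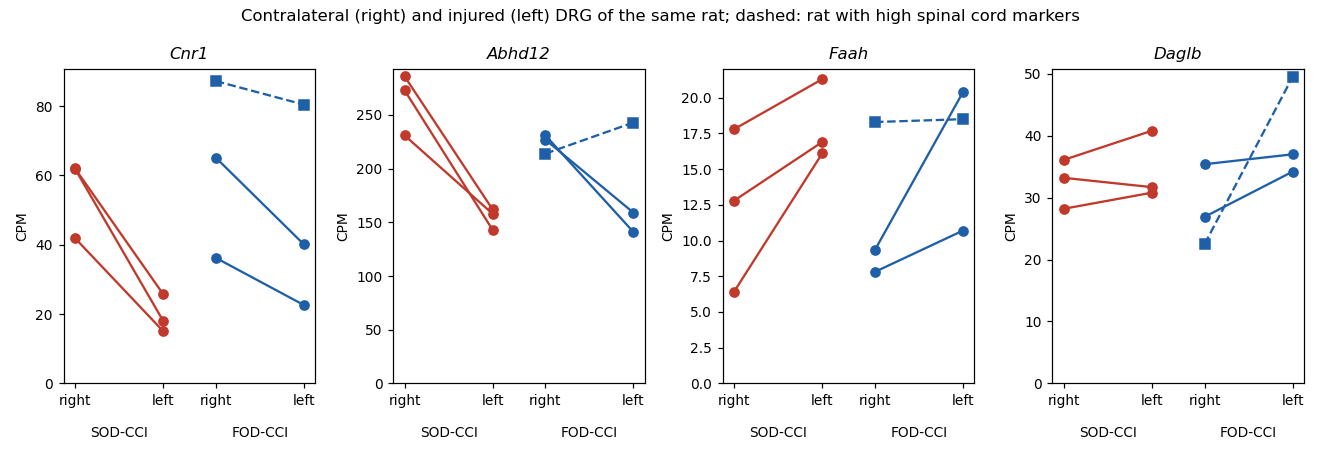
CPM of Cnr1, Abhd12, Faah, and Daglb in the contralateral (right) and injured (left) DRG of the 3 SOD-CCI (red) and 3 FOD-CCI (blue) rats, with a line per rat. The left value is below the right for Cnr1 on all 6 lines and above it for Faah on all 6, and the dashed line is FOD-CCI replicate 1.

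Cnr1 differed less between sides in FOD-CCI than in SOD-CCI rats, by 0.99 on the log2 scale (SE 0.286, unadjusted p = 0.00734), but this difference was not called (adjusted p = 0.997). None of the 14549 genes was called for it (0%), and 2.91% had an unadjusted p under 0.05. Without FOD-CCI replicate 1 the difference was 0.80 (SE 0.29, unadjusted p = 0.0212).

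Compared with sham, Cnr1 was lower in the left DRG of SOD-CCI rats, which are the same libraries as in the comparison of sides. CPM was 32.5, 34.3, 46.2, and 56.9 in SOD-CT, and 25.8, 18.1, and 15.1 in SOD-CCI, with no overlap. The log2FC was −1.14 (SE 0.492, unadjusted p = 0.0358), and it was not called (adjusted p = 0.338). In this comparison 18% of genes did not overlap between groups, 13.8% had an unadjusted p under 0.05, and none was called (0%).

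On the fish oil diet, Cnr1 ranged widely. CPM was 79.3, 48.2, and 38 in FOD-CT, and 80.4, 40.1, 22.6, and 13.6 in FOD-CCI. These groups overlapped (log2FC −0.50, SE 0.473, adjusted p = 1), in a comparison with no called gene (0%) and 4.52% of genes at an unadjusted p under 0.05, and the highest value of each was the library with spinal cord markers. Without FOD-CCI replicate 1 the log2FC of Cnr1 was −1.13 (SE 0.395, unadjusted p = 0.0133, adjusted p = 0.317), and without FOD-CT replicate 1 it was −0.15 (SE 0.529). Without the libraries with muscle or spinal cord markers named above it was −0.58 (SE 0.509), with a single FOD-CT library left. Over all 20 libraries, Cnr1 was highest in the 3 libraries with those markers (79.3 to 87.2 CPM).

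The comparison of diets after injury depended on that library. FOD-CCI exceeded SOD-CCI in Cnr1 by a log2FC of 1.00 (SE 0.489, unadjusted p = 0.0601, adjusted p = 0.859), and by 0.37 (adjusted p = 0.976) without FOD-CCI replicate 1. No gene was called there (0%), and 5.4% had an unadjusted p under 0.05. The diet by injury interaction was 0.64 (SE 0.678, adjusted p = 0.895) and became 0.01 (SE 0.533) without it. The mean effect of CCI over both diets was −0.82 (SE 0.339, adjusted p = 0.377), and −1.14 without it, which passed the threshold (adjusted p = 0.0587). With all libraries no gene was called for this mean (0%), and 11.5% had an unadjusted p under 0.05. In fits that left out 1 library at a time, 0 to 517 genes were called for it, so the 0% is no measure for the Cnr1 call. The share of genes called in the fit without FOD-CCI replicate 1 is not reported here, so that call cannot be set against it. The part of spinal cord tissue in these values was not tested.

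Markers of DRG neurons, the cells best known to carry CB1 in the ganglion, were set beside Cnr1. Between the sides of SOD-CCI rats, 3 of 10 were higher on the left, none was called, and the median log2FC was −0.12. Summed CPM of the 10 was 19900 to 24200 on the left and 25200 to 28700 on the right. In FOD-CCI rats 9 of 10 were higher on the left (median log2FC 0.70), with the neuron-poor contralateral DRG of replicate 1 among them. In bulk tissue, fewer cells of a type and less RNA per cell cannot be told apart.

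Contralateral and sham DRG overlapped in Cnr1 on both diets. The log2FC of contralateral against sham was 0.32 (SE 0.341, adjusted p = 0.844) on the soy oil diet and 0.19 (SE 0.366, adjusted p = 1) on the fish oil diet. Sham rats of the 2 diets gave a log2FC of 0.36 (SE 0.474, adjusted p = 0.969). No gene was called in any of these 3 comparisons (0% each), and 7.06%, 1.71%, and 3.39% of genes had an unadjusted p under 0.05.

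The other receptor, Cnr2, was too low for a firm comparison. Left DRG held 0.393, 2.45, and 1.42 CPM in SOD-CCI, against 0, 0.612, 0.539, and 3.01 in SOD-CT. FOD-CCI held 0.516, 5.71, 1.09, and 3.61 CPM, against 1.26, 0.704, and 0.891 in FOD-CT. The highest values were therefore in 2 of the 4 FOD-CCI rats, and the groups overlapped (log2FC 1.5, SE 1.107, adjusted p = 1).

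Between sides, Cnr2 failed the filter on low counts and was not tested. Counts on the left and right were 11 and 0, 78 and 12, and 43 and 4 in SOD-CCI rats. They were 14 and 23, 167 and 22, and 59 and 27 in FOD-CCI rats. CPM was higher on the left in 5 of 6 rats, though nearly equal in FOD-CCI replicate 3 (1.09 and 1.08). Macrophage markers, which stand for cells known to carry CB2, were higher on the left for 9 of 9 genes as the mean of both diets, with 2 called and a median log2FC of 1.36. Their summed CPM was 202 to 301 in SOD-CCI against 38.7 to 85.1 on the contralateral side. In FOD-CCI replicates 1, 2, and 3, left and right were 173 and 312, 355 and 135, and 361 and 250, so replicate 1 went the other way. The part of these cells in Cnr2 was not tested.

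Faah, the anandamide hydrolase, was higher in the injured DRG than in the contralateral DRG of 6 of 6 rats. Left and right CPM were 16.1 and 6.43, 21.3 and 17.8, and 16.9 and 12.8 in SOD-CCI rats, and 18.5 and 18.3, 10.7 and 7.81, and 20.4 and 9.35 in FOD-CCI rats. The ratio ran from 1.01 to 2.51, and 5.13% of genes were higher on the left in 6 of 6 rats. The mean log2FC was 0.59 (SE 0.23, unadjusted p = 0.0298, adjusted p = 0.361), which was not called.

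Faah also separated injured from sham DRG on the soy oil diet. Contralateral DRG of the same rats also exceeded SOD-CT, with overlap (log2FC 0.78, SE 0.491, unadjusted p = 0.138, adjusted p = 0.736). On the fish oil diet contralateral against sham was −0.12 (SE 0.528). CPM was 3.64, 10.3, 9.2, and 4.94 in SOD-CT, and 16.1, 21.3, and 16.9 in SOD-CCI, with no overlap, as for 18% of genes. The log2FC of SOD-CCI to SOD-CT was 1.35 (SE 0.395, unadjusted p = 0.00428). It was not called by edgeR (adjusted p = 0.266), which called no gene there (0%). It passed the threshold in DESeq2 (1.32, adjusted p = 0.053), which called 594 genes in this comparison. Without SOD-CT replicate 1 and the other libraries with muscle or spinal cord markers it was 1.14 (adjusted p = 0.215).

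On the fish oil diet, injured and sham DRG overlapped in Faah. CPM was 18.3, 7.52, and 13 in FOD-CT, and 18.5, 10.7, 20.4, and 24.2 in FOD-CCI (log2FC 0.50, SE 0.399, adjusted p = 1). FOD-CT exceeded SOD-CT by 0.87 (SE 0.394, unadjusted p = 0.0444, adjusted p = 0.965), and the interaction of diet and injury was −0.84 (SE 0.557, adjusted p = 0.894). Without FOD-CT replicate 1, which has spinal cord markers, FOD-CT exceeded SOD-CT in Faah by 0.54 (SE 0.425, unadjusted p = 0.231), and FOD-CCI exceeded FOD-CT by 0.84 (SE 0.447, unadjusted p = 0.083). Without the libraries with muscle or spinal cord markers named above, these values were 0.68 (SE 0.461) and 0.49 (SE 0.489), with a single FOD-CT library left. Over both diets, CCI exceeded CT by 0.93 (SE 0.282, adjusted p = 0.214). The libraries with spinal cord markers had 18.3 to 18.5 CPM of Faah, above the median of 12.9 over all libraries.

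Napepld, the N-acylethanolamine-releasing enzyme, did not differ by group beyond its spread. CPM was 0, 5.02, 6.35, and 5.61 in SOD-CT and 2.61, 3.74, and 5.17 in SOD-CCI. It was 9.59, 2.29, and 3.69 in FOD-CT and 5.46, 3.62, 4.33, and 2.28 in FOD-CCI. The 0 was in SOD-CT replicate 1, where muscle transcripts were high, and the highest value was a library with spinal cord markers. Between sides the mean log2FC was −0.25 (SE 0.34, adjusted p = 0.823).

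Of the diacylglycerol lipases, the level of Dagla in FOD-CCI lay below that of FOD-CT and SOD-CCI. CPM was 51.8, 26.9, 48.6, and 33.2 in FOD-CCI, below the 53.8, 53.7, and 79.4 of FOD-CT and the 55.9, 59.1, and 61.5 of SOD-CCI without overlap. In SOD-CT it was 24, 66.3, 82.2, and 42.8, which spanned the other groups. The 24 was SOD-CT replicate 1, where muscle transcripts were high. The log2FC of FOD-CCI to FOD-CT was −0.64 (SE 0.336, unadjusted p = 0.0767, adjusted p = 1), where 4.66% of genes did not overlap and none was called (0%). That to SOD-CCI was −0.55 (SE 0.336, adjusted p = 0.859), where 14.7% of genes did not overlap and none was called (0%). Without the libraries with muscle or spinal cord markers, FOD-CCI to FOD-CT was −1.14 (SE 0.349, adjusted p = 0.276), with a single FOD-CT library left.

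Dagla did not follow the injured side. It was higher on the left in 3 of 6 rats, with ratios from 0.442 to 1.47 (mean log2FC −0.24, SE 0.218, adjusted p = 0.707). Daglb, the lipase best known from macrophages and microglia, was the steadiest of the 9 genes, with a coefficient of variation of 18.1% over 20 libraries against 25.7% to 111% for the others. It was higher on the left in 5 of 6 rats, by a ratio of 0.955 to 2.2 (mean log2FC 0.30, SE 0.169, adjusted p = 0.55), and the ratio of 2.2 was in FOD-CCI replicate 1. Without that rat the mean was 0.14 (SE 0.145).

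**Figure D3:**
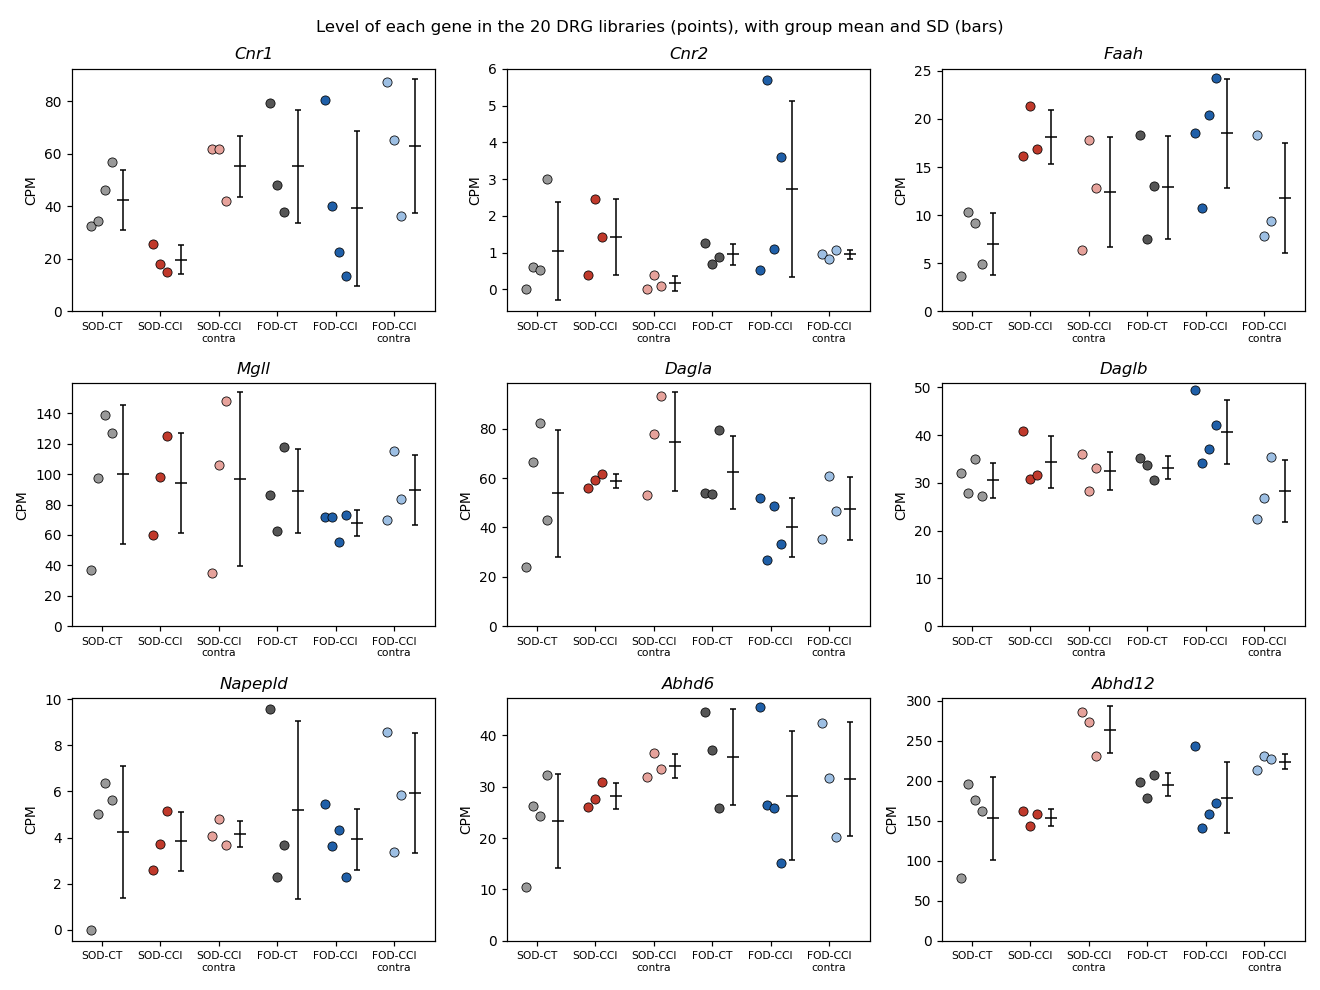
CPM of each gene in 6 groups, with a point per library in replicate order and the group mean and SD to the right of the points. Cnr1 is lowest in SOD-CCI and part of FOD-CCI, Faah lowest in SOD-CT, and Abhd12 highest in contralateral DRG of SOD-CCI rats.

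Among the enzymes that break down 2-arachidonoylglycerol, Abhd12 was lower in the injured than in the contralateral DRG of 5 of 6 rats. Left and right CPM were 162 and 286, 143 and 273, and 158 and 231 in SOD-CCI rats, which did not overlap. They were 243 and 214, 141 and 231, and 159 and 227 in FOD-CCI rats, the exception being replicate 1. Of the 8 genes, 3 (Cnr1, Abhd6, and Abhd12) did not overlap between the sides of SOD-CCI rats, against 20.7% of all genes. The mean log2FC of Abhd12 was −0.56 (SE 0.156, unadjusted p = 0.00611, adjusted p = 0.211), which was not called, and −0.69 (adjusted p = 0.022), which was, without FOD-CCI replicate 1. In the fit without that rat 1146 genes (7.64%) were called, against 140 (0.962%) with it.

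Injured and sham DRG overlapped in Abhd12 on the soy oil diet. CPM in SOD-CT was 77.9, 196, 176, and 162, against 143 to 162 in SOD-CCI (log2FC −0.01, SE 0.26, adjusted p = 0.995). The 77.9 was SOD-CT replicate 1, where muscle transcripts were high, and the other SOD-CT values were 162 to 196. Leaving out 1 library at a time, this log2FC ran from −0.217 to 0.128. The contralateral DRG of SOD-CCI rats exceeded SOD-CT without overlap (log2FC 0.74, SE 0.256, unadjusted p = 0.0124, adjusted p = 0.7), where 8.49% of genes did not overlap. On the fish oil diet contralateral DRG also exceeded sham DRG (179 to 207 CPM) without overlap (log2FC 0.21, SE 0.276, adjusted p = 1), where 8.93% of genes did not overlap.

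Abhd6, which hydrolyses 2-arachidonoylglycerol near its site of synthesis in neurons, was 26.1, 27.6, and 31 CPM in SOD-CCI and 32, 36.6, and 33.5 CPM in their contralateral DRG. All 3 left values lay below all 3 right values, and the log2FC was −0.26 (SE 0.2, adjusted p = 0.809). In FOD-CCI rats 2 of 3 were higher on the left (log2FC 0.06, SE 0.2, adjusted p = 0.964). Sham DRG spanned 10.5 to 32.3 CPM in SOD-CT and 25.9 to 44.5 in FOD-CT, the 10.5 being SOD-CT replicate 1, where muscle transcripts were high. As with Cnr1, the 3 highest libraries of the 20 (42.4 to 45.6 CPM) were those with spinal cord markers.

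Mgll, the main 2-arachidonoylglycerol hydrolase of the brain, varied from 35.1 to 148 CPM with no order by group. CPM in FOD-CCI was 71.6, 71.8, 55.3, and 72.8, a narrower range than the 36.7 to 139 of SOD-CT. The 36.7 was SOD-CT replicate 1, where muscle transcripts were high. It was higher on the left in 2 of 6 rats (mean log2FC −0.14, SE 0.177, adjusted p = 0.801). Against sham, the log2FC was −0.10 (SE 0.364, adjusted p = 0.925) for SOD-CCI and −0.40 (SE 0.362, adjusted p = 1) for FOD-CCI.

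**Figure D4:**
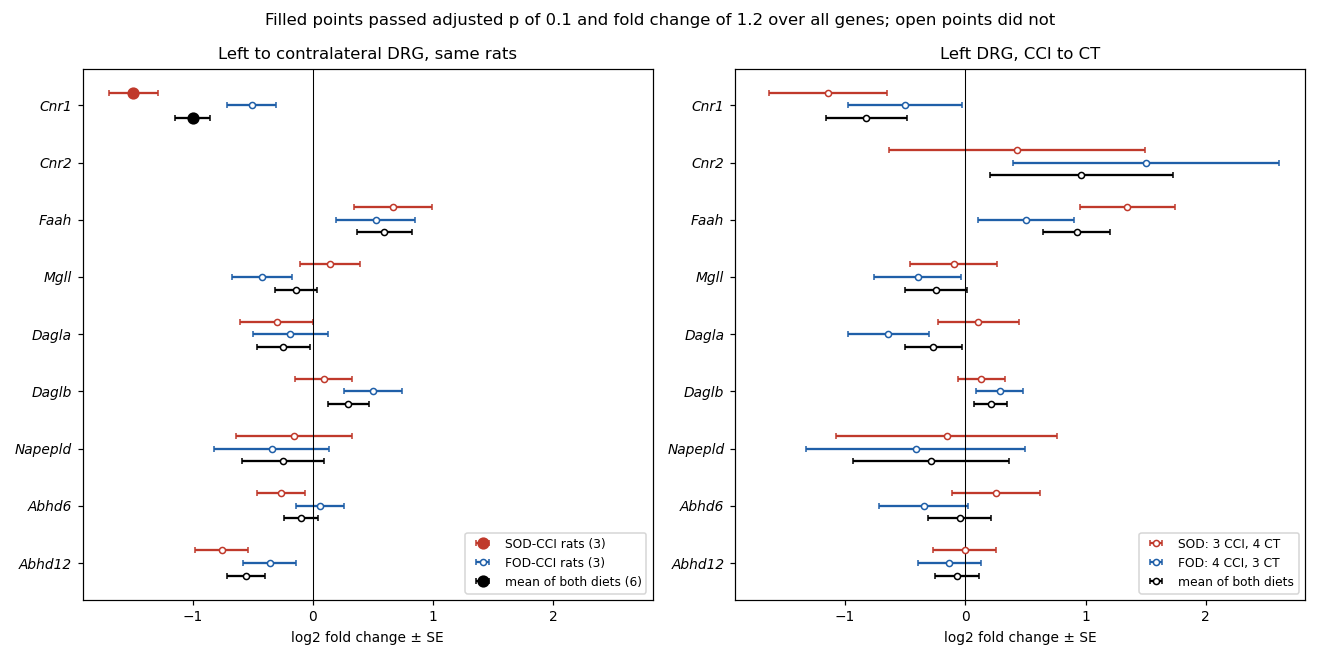
Log2FC with SE of the 9 genes between sides of the same rats (left panel, where Cnr2 was not tested) and between CCI and CT in left DRG (right panel), for SOD (red), FOD (blue), and the mean of both diets (black). The filled points, both of Cnr1, are the only ones that passed the threshold.

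Taking the 9 genes as a list, none was called in the 6 comparisons of left DRG, where 0% of all 14484 genes were called. Their median log2FC was 0.11 in SOD-CCI to SOD-CT and −0.35 in FOD-CCI to FOD-CT, beside −0.01 and 0.01 for all genes. Between sides the median of the 8 tested was −0.19 as the mean of both diets, beside 0.03 for all genes, with 2 higher and 6 lower. The interaction of diet and injury had 5.01% of genes at an unadjusted p under 0.05, and no gene of the list was among them. Of the 8 genes with enough counts in all groups, 2 (Cnr1 and Faah) had the same direction between sides in 6 of 6 rats, as did 7.91% of all genes. None of the 8 was without overlap between the sides of FOD-CCI rats (3.73% of genes were) or between FOD-CT and SOD-CT (3.15%).

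Genes around these 9 in the same signalling system were taken as a list of 35, covering other lipid receptors, Gi/o subunits and CB1 partners, alternative routes of synthesis, phospholipases C, oxidising enzymes, and carriers. Of these, 23 were tested in left DRG, with none called in any of the 6 comparisons, and 24 between sides, with 1 called as the mean of both diets, where 0.962% of all genes were. This was Fabp5, a fatty acid binding protein that carries anandamide inside cells, which rose on the left as the mean of both diets (log2FC 0.88, SE 0.14, adjusted p = 0.0395). Without FOD-CCI replicate 1 it was 0.80 (SE 0.13, adjusted p = 0.00988), in a fit where 7.64% of genes were called. Against sham, Fabp5 gave 1.22 (SE 0.30, adjusted p = 0.133), and 1.15 (SE 0.207, adjusted p = 0.0226) without the libraries with muscle or spinal cord markers, a fit in which 3.67% of genes were called. Both of these alternatives for Fabp5 were chosen after seeing the data.

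The next by p were not called. Pparg, a nuclear receptor that N-acylethanolamines and fatty acids can bind, had a log2FC of 1.73 (SE 0.54, adjusted p = 0.262) between sides, on at most 423 counts in a library. Gnai1, a Gi subunit through which CB1 can signal, had −0.46 (SE 0.16, adjusted p = 0.3). The median of the 24 was 0.11, with 3 higher and 3 lower at an unadjusted p under 0.05, beside 11.6% of all genes in either direction.

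Across the 20 libraries, the highest correlations among these genes were between Napepld, Abhd6, and Abhd12. Pearson's r of log2 CPM was 0.74 for Napepld and Abhd6, 0.72 for Napepld and Abhd12, and 0.66 for Abhd6 and Abhd12. With each group centred on its own mean, r was 0.82 for Napepld and Abhd12, 0.77 for Cnr1 and Abhd6, 0.72 for Napepld and Abhd6, and 0.63 for Abhd6 and Abhd12. Cnr1 and Abhd6 then came before 2 of the 3 pairs. Mgll and Dagla (0.70) and Dagla and Abhd12 (0.70) also came before Abhd6 and Abhd12. These are descriptions over libraries that share low values in SOD-CT replicate 1. The bases upstream of their start sites in RefSeq (build GRCr8) are shown for these 3 genes, chosen by their r over the 20 libraries, 250 bases 5′ to 3′ on the strand of the gene, with GC boxes (GGGCGG on either strand, so also CCGCCC) in capitals. Napepld lies at chr4:14253010-14253259 (plus strand), Abhd6 at chr15:19337194-19337443 (minus), and Abhd12 at chr3:160179930-160180179 (minus).
Napepld: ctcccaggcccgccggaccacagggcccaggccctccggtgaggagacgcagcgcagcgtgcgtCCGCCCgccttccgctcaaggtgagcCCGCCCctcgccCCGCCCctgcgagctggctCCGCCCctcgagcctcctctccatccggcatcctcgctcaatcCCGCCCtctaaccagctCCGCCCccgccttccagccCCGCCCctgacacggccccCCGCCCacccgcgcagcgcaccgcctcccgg
Abhd6: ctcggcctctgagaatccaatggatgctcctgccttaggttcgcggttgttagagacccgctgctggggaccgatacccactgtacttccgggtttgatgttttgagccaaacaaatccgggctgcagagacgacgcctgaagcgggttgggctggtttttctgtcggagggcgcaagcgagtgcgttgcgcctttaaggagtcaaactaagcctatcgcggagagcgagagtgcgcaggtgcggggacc
Abhd12: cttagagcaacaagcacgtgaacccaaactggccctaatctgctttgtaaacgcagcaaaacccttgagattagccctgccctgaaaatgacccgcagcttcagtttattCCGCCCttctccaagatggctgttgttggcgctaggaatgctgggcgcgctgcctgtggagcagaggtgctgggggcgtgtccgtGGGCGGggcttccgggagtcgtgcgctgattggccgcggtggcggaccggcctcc

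Napepld held 8 GC boxes in this window, Abhd12 held 2, and Abhd6 held none. Of 33469 RefSeq promoter windows of this length, 30.5% held at least 1. RefSeq windows were found for 7 of the 9 genes. Cnr1 and Dagla were without an entry. Neither the AP-1 letters TGANTCA (in 6.34% of windows, both strands) nor the cyclic AMP response element TGACGTCA (1.59%) occurred in any of the 9 windows of these 7 genes, Cnr2 having 3 start sites. Faah, at chr5:134735397-134735646, held 1 GC box. A match is a run of letters and says nothing of binding.

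Outside the 9 genes, those whose level followed each most closely over the 20 libraries are named by Pearson's r among 14435 genes. Cnr1 was followed by Vstm2a (0.92), Nap1l5 (0.91), and Pla2g7 (0.91). Faah was followed by Ncam1 (0.91), Ncan (0.91), and Coro1c (0.90), and Dagla by Cntn2 (0.93), Scn8a (0.93), and Pygb (0.92).

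The hydrolases had other neighbours. Mgll was followed by Slit2 (0.90), Col4a2 (0.89), and Secisbp2l (0.89), and Abhd12 by Asphd2 (0.92), Lrrc24 (0.90), and Rnf187 (0.90). Daglb had the weakest neighbours, namely Ippk (0.81), Slc45a3 (0.73), and Pwwp2b (0.71). Those of Napepld, Tcerg1l, Lrfn1, and Tbc1d30, reached 0.97. Libraries with muscle or spinal cord transcripts enter all of these values.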

How the data were processed

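Messenger RNA of rat DRG was sequenced in 20 libraries. By the submitters' processing notes, fastp, HISAT2, and featureCounts 1.5.0-p3 served the authors for trimming, alignment, and counting, and the deposited counts are unscaled whole numbers per gene. The authors also deposited FPKM values, which were used here only to order genes by level. The genome build, strand use, and handling of reads with several alignments are not given in the sources used here. Faah and other renamed genes were matched through RefSeq (70.7% of gene identifiers found).

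The main test was run in edgeR 4.0.16 (R 4.3.3, with limma 3.58.1), and DESeq2 1.42.0 was an alternative. A gene entered a fit when 90% or more of its libraries had 10 or more counts. One fit held the 14 left libraries (a mean per group), one the 12 libraries of 6 CCI rats (rat as a block), and one the 13 sham and contralateral libraries. Sides were paired by rat, as the labels give it, and deviations of the 2 sides correlated by 0.11 to 0.43. FOD-CT and FOD-CCI libraries of the same number, which are different rats, also deviated together (0.19 to 0.43), and the fit with that number as a block was an alternative. Log2 CPM for correlations used a prior count of 1. No pair of libraries within a group came near sampling noise (chi-square per gene of 24.2 or more in 24 pairs). The edgeR code was also run on simulated counts. These had less spread between libraries than the data, larger changes than those of the members, and no rat effect. That run checked the code and cannot show how the tests perform on these data. Genes named are the 9 members, genes of the list of 35 that were called or had the 3 smallest p between sides, and the 3 genes most like each member (those of Abhd6 are not reported here, and Cnr2 was too low). Members and lists were chosen with earlier results of these data known.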

Additional observations from a re-analysis of the deposited data

Results flagged for a closer look

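Mgll in the left DRG of FOD-CCI replicate 3 (55.3 CPM) stood far below the other 3 libraries of its group (71.6 to 72.8 CPM): its gap to the nearest, divided by the range of the group, was 0.931, above Dixon's 95% critical value for 4 samples. This was 1 of 18 such checks over 9 genes and 2 groups, and chance alone flags about 1 group in 20.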

How the results depend on the processing

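Under the alternatives, 543 values of single genes kept their direction and their side of the threshold. A further 7 came to pass it, 2 no longer passed it, and 21 turned direction. These counts set aside the fits that left out each library or rat in turn. They include the separate fit without both DRG of FOD-CCI replicate 1. The fall of Cnr1 between sides kept its direction in all fits, with an adjusted p of 1.2e-06 to 0.789 in SOD-CCI rats and 3.74e-06 to 0.377 for the mean. Without the replicate block on the rat, Cnr1 was −1.48 (adjusted p = 0.716) and −0.94 (adjusted p = 0.377), and no member was called (0). With DESeq2, 2 members were called between sides, both in SOD-CCI rats and for the mean, where 472 and 790 of 14549 genes were called. Without the rat FOD-CCI replicate 1, 2 members were also called in each, where 471 and 1146 of 14992 genes were called. In SOD-CCI rats fitted alone 2 members were called, among 1461 genes called. The second member was Abhd12 each time (adjusted p 0.00609 to 0.0618). DESeq2 called 1 member, Faah, in SOD-CCI to SOD-CT (adjusted p = 0.053) and for CCI to CT over both diets (0.0644). There 594 and 476 of 14484 genes were called. The causes were not tested. The replicate number as a replicate block in left DRG changed no call of a member.

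Counts of all called genes moved more. DESeq2 called 594 genes in SOD-CCI to SOD-CT, 21 in FOD-CCI to FOD-CT, 476 for their mean, 2 in FOD-CCI to SOD-CCI, 42 for the interaction, 52 for contralateral DRG against SOD-CT, and between sides 472 (SOD), 264 (FOD), 790 (mean), and 60 (difference of diets). With no filter on low counts, 224 were called for CCI to CT over both diets and, between sides, 220 (SOD), 61 (FOD), 456 (mean), and 3 (difference). DESeq2 size factors in edgeR gave 24 for CCI to CT over both diets, and the replicate block gave 1 there and 1 in SOD-CCI to SOD-CT. Without the libraries with muscle or spinal cord markers 160, 29, and 565 were called in SOD-CCI to SOD-CT, FOD-CCI to FOD-CT, and their mean, and without both DRG of FOD-CCI replicate 1, 471 (SOD), 137 (FOD), and 1146 (mean) between sides. With no replicate block on the rat 0, 0, and 10 were called, and with 1 diet fitted alone 1461 (SOD) and 1 (FOD). Leaving out 1 library or rat at a time, the count ran from 0 to 47 in SOD-CCI to SOD-CT, 0 to 43 in FOD-CCI to FOD-CT, 0 to 517 for their mean, and between sides 0 to 471 (SOD), 0 to 137 (FOD), and 8 to 1146 (mean). Called members ran from 0 to 2 between sides in SOD-CCI rats, 0 to 2 for the mean, and 0 to 1 for CCI to CT over both diets (Cnr1, without FOD-CCI replicate 1).

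Values that turned direction were not called in any fit. Under the replicate block they were Mgll in SOD-CCI to SOD-CT (0.017), Cnr2 in FOD-CT to SOD-CT (1.66) and in the interaction (−1.36), Mgll (0.028), Daglb (−0.025), and Napepld (0.082) in contralateral DRG against SOD-CT, and Mgll (−0.003) in contralateral DRG against FOD-CT. Without the libraries with muscle or spinal cord markers they were Dagla in SOD-CCI to SOD-CT (−0.13), Napepld (−0.155) and Abhd6 (−0.31) in FOD-CCI to SOD-CCI, Cnr1 (−0.268), Napepld (−0.611), and Abhd6 (−0.09) in FOD-CT to SOD-CT, Napepld in the interaction (0.456), and Mgll (−0.24), Daglb (0.032), and Abhd6 (0.007) in contralateral DRG against FOD-CT. Without FOD-CCI replicate 1, Faah (0.126) and Dagla (−0.26) turned in the difference of diets between sides. Mgll turned between sides of SOD-CCI rats without a replicate block (−0.033) and in contralateral DRG against FOD-CT without a filter (−0.019).

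Leaving out 1 library or rat at a time, log2FC spanned 0 for these. In SOD-CCI to SOD-CT they were Cnr2 (−0.214 to 1.82), Mgll (−0.375 to 0.146), Dagla (−0.129 to 0.378), Daglb (−0.004 to 0.208), Napepld (−0.576 to 0.103), and Abhd12 (−0.217 to 0.128). Napepld spanned 0 in FOD-CCI to FOD-CT (−0.766 to 0.384) and, with Abhd6 (−0.212 to 0.058), for CCI to CT over both diets (−0.494 to 0.115). In FOD-CCI to SOD-CCI they were Faah (−0.126 to 0.218), Napepld (−0.179 to 0.309), and Abhd6 (−0.321 to 0.216). In FOD-CT to SOD-CT they were Cnr2 (−0.544 to 1.25), Mgll (−0.437 to 0.022), Dagla (−0.024 to 0.472), and Napepld (−0.502 to 0.648), and in the interaction Cnr2 (−0.317 to 1.72), Napepld (−0.613 to 0.537), and Abhd12 (−0.315 to 0.078). Between sides they were Mgll (−0.182 to 0.326) and Napepld (−0.494 to 0.068) in SOD-CCI rats, Dagla (−0.563 to 0.301) and Abhd6 (−0.075 to 0.222) in FOD-CCI rats, and Faah (−0.432 to 0.195), Dagla (−0.26 to 0.602), and Napepld (−0.407 to 0.163) in the difference of diets. In contralateral DRG against SOD-CT they were Mgll (−0.538 to 0.32), Daglb (−0.046 to 0.118), and Napepld (−0.464 to 0.196). Against FOD-CT they were Cnr1 (−0.132 to 0.541), Faah (−0.599 to 0.207), Mgll (−0.202 to 0.261), Napepld (−0.182 to 0.988), and Abhd6 (−0.469 to 0.046). The fits without the libraries with muscle or spinal cord markers left FOD-CT with 1 library, which was assumed to vary like the others. Cnr2 had few counts, and its coefficient of variation over the libraries (111%) was also the largest of the members. Counting noise and spread between libraries were not separated for any member.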
